A study of Drosophila melanogaster with 16 samples.

Results

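The gut and endoderm transcription factors described here are srp, GATAe, pnr, hkb, fkh, byn and cad, 7 of the 11020 genes that could be named on the array. They were chosen by gene symbol, and each was measured by 1 probe set. RNA from whole Drosophila melanogaster embryos had been hybridized to 16 single-colour expression arrays, 1 array per replicate. Untreated wild type (n = 5) was Oregon-R kept without heat shock. Heat-shocked wild type (n = 3) was Oregon-R given 25 min at 37 °C and then 25 min at 25 °C. Heat-shocked hsp-otd embryos (n = 4) came from line 5A, which carries the fly head gene otd under a heat shock promoter, and heat-shocked hsp-Otx2 embryos (n = 4) carried the human relative Otx2 in the same way. Both lines received the same heat pulse as heat-shocked wild type, and such a promoter is not limited to 1 tissue. Collection took 12 h and ageing 4 h in the 3 heat-shocked groups, times that the labels do not state for untreated wild type, and all embryos had reached stages 10 to 17. The genetic background of the lines is not stated either, so the line and its transgene cannot be told apart.

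The fly gut has separate origins. Endoderm at both ends of the embryo forms the midgut, and ectoderm forms the foregut, the hindgut and, with the hindgut, the Malpighian tubules. The terminal gap gene hkb marks the endoderm primordia, srp commits them to a midgut fate, and GATAe, a later GATA zinc finger factor under srp, keeps the midgut programme running. The FoxA protein fkh serves all gut regions and the salivary gland, the Brachyury relative byn is needed for the hindgut, and the homeodomain factor cad, a Cdx relative, specifies the posterior and the hindgut. The GATA factor pnr acts outside the gut, in dorsal ectoderm, amnioserosa and heart. In the reference annotation srp, GATAe and pnr are consecutive protein-coding genes on chromosome arm 3R, between Hel89B and Jhbp4.

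Deposited mean intensity ran from 460.2 to 650.2 in the heat-shocked wild-type arrays, from 785.9 to 997.8 in the hsp-otd arrays, and from 598.7 to 1016.4 in the remaining groups. Levels are therefore quantile-normalized intensities with a floor of 20, differences are in log2, and results of the 7 factors are also given without normalization where that ends a call. Of 12301 probe sets tested, those higher made up 53.8% of the calls in hsp-otd against heat-shocked wild type and 92.8% of them without normalization, which moved the median of all probe sets to 0.68. For hsp-Otx2 against heat-shocked wild type these shares were 47.1% and 86.4%, with a median of 0.29. Median scaling gave 71.5% and 62.6%, with a median of 0.15 in hsp-otd. Probe sets for elav (neurons), Cpr65Ea (epidermis), crq (haemocytes) and vas (germ line) were above the floor in 16 of 16 arrays. Those for Mhc (muscle), Jon99Ciii (midgut) and btl (trachea) were above it in 12, 11 and 9. For Jon99Ciii these were 0 of 5 untreated wild-type arrays and all arrays of the heat-shocked groups. The transgene check was clear for 1 line: oc, the current symbol of otd, read 6448, 6246, 6213 and 6385 in hsp-otd, against 235, -16.5 and 76.7 in heat-shocked wild type (difference 6.47, SE 0.54, limma adjusted p = 4.289e-07). No probe set for the human gene was identified, so the hsp-Otx2 label has no such check.

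In hsp-Otx2 against heat-shocked wild type, the 3 GATA factors srp, GATAe and pnr fell, and hkb, fkh, byn and cad did not pass the test. These 3 of 7 factors stand against a background in which 37.2% of all tested probe sets passed (Benjamini-Hochberg adjusted p under 0.05), 17.5% higher and 19.7% lower, so the share that passed was near the background. The same 3 factors had no overlap between the groups, as did 41.7% of all probe sets. In hsp-otd against heat-shocked wild type 1 of 7 factors fell (GATAe) and none rose, where 29.3% of all probe sets passed, 15.8% higher and 13.6% lower. Between the lines, 2 of 7 were higher in hsp-otd (pnr and srp), where 29.5% of probe sets passed, 15.7% higher and 13.8% lower. The median difference of the 7 factors was -0.25 in hsp-Otx2 against heat-shocked wild type, beside -0.13 over all probe sets, and 0.08 beside -0.00 in hsp-otd. Since the samples were whole embryos, fewer cells of a type and less RNA per cell cannot be told apart in any of these values.

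**Figure D1:**
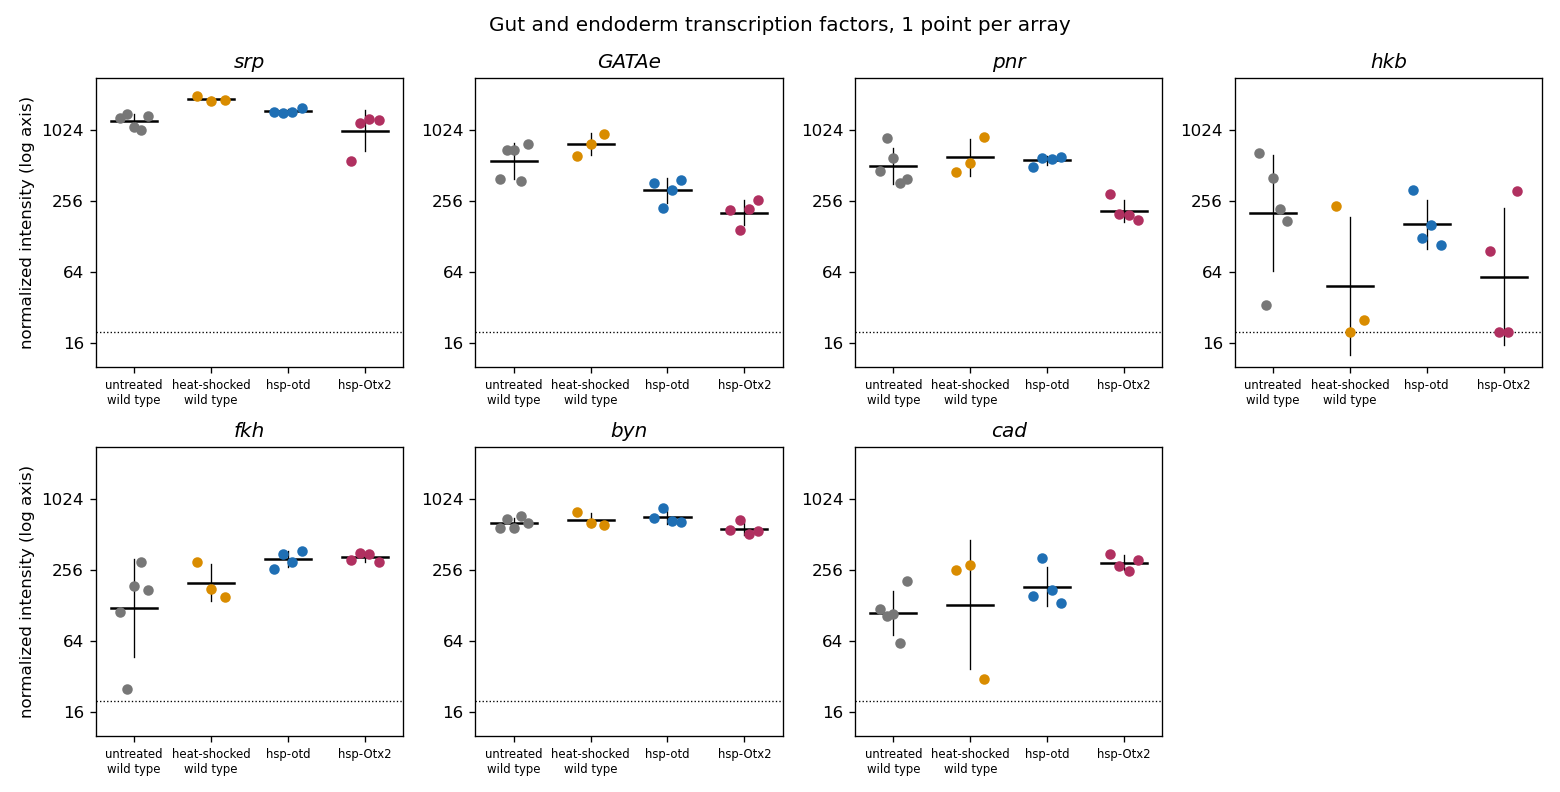
Normalized intensity (log axis) of the 7 factors, 1 point per array, in the 4 groups; bars are geometric means, vertical lines are 1 SD on the log2 scale, and the dotted line is the floor of 20, at which values below it are drawn. The hsp-Otx2 arrays of GATAe (145 to 261) and pnr (179 to 291) lie below all heat-shocked wild-type arrays of the same gene, while the line and heat-shocked wild-type arrays of fkh, byn and cad overlap and hkb reaches the floor.

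The endoderm selector srp, which also specifies haemocytes and fat body, read 1282, 1397, 1084, 1021 and 1355 in untreated wild type. It read 1975, 1799.9 and 1846 in heat-shocked wild type. In hsp-otd it read 1461, 1426, 1446 and 1578, and in hsp-Otx2 557, 1168, 1277 and 1241. The 3 heat-shocked wild-type arrays were the highest of all 16, and replicate 1 of hsp-Otx2 was the lowest by a wide margin. The order of geometric means was heat-shocked wild type (1872), hsp-otd (1477), untreated wild type (1219) and hsp-Otx2 (1008). No neighbours in that order passed the test (adjusted p = 0.247, 0.3002 and 0.2712 in turn), which uses a spread shared by all 4 groups. The log2 SD of srp in these groups, in the same order, was 0.07, 0.07, 0.20 and 0.57.

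Against heat-shocked wild type, srp fell 1.86-fold in hsp-Otx2 (log2 difference -0.89, SE 0.21, 95% interval -1.35 to -0.44, adjusted p = 0.003696). The fall passed with each array left out in turn (-1.01 to -0.61), and without hsp-Otx2 replicate 1 it was -0.61 (adjusted p = 0.0008259). It did not pass without normalization (-0.27, adjusted p = 0.703), with median scaling (-0.59, adjusted p = 0.05064) or with only these groups in the fit (adjusted p = 0.06128). In hsp-otd srp differed from heat-shocked wild type by -0.34 (SE 0.21, 95% interval -0.80 to 0.11, adjusted p = 0.247), although the groups did not overlap. With hsp-Otx2 replicate 1 left out of the shared estimate of the spread, the same difference passed (-0.34, adjusted p = 0.02695), and without normalization it was 0.58 (adjusted p = 0.2472). The difference in hsp-otd also passed with only these groups in the fit (adjusted p = 0.007023), the 1 of 11 other settings in which it did. Between the lines, srp was 1.47-fold higher in hsp-otd (0.55, SE 0.20, adjusted p = 0.04653), and that call rested on single arrays. It was lost when any of 12 arrays was left out, and without hsp-Otx2 replicate 1 the difference was 0.27 (adjusted p = 0.082). It passed under 5 of 11 other settings, not without normalization (0.85, adjusted p = 0.1079).

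GATAe, the endodermal GATA factor that stays on in the differentiated midgut, read 395, 688, 688, 376 and 779 in untreated wild type. It read 619, 783 and 953 in heat-shocked wild type. In hsp-otd it read 367.5, 225, 316 and 388, and in hsp-Otx2 215, 145, 218 and 261. Every array of both lines lay below every heat-shocked wild-type array, and all hsp-Otx2 arrays also lay below all untreated ones. The order of geometric means was heat-shocked wild type (773), untreated wild type (559), then hsp-otd (317), then hsp-Otx2 (205). Among neighbours in this order, untreated wild type and hsp-otd differed (adjusted p = 0.02406). The comparisons of the wild-type groups (adjusted p = 0.2575) and of the lines (adjusted p = 0.09586) did not pass the test.

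GATAe fell 3.77-fold in hsp-Otx2 against heat-shocked wild type (log2 difference -1.92, SE 0.29, 95% interval -2.53 to -1.30, adjusted p = 8.401e-05). This was the largest fall among the 7 factors, and it passed with each array left out (-2.08 to -1.74) and under the 11 other settings run (-1.94 to -1.43, highest adjusted p = 0.02275). In hsp-otd it fell 2.44-fold (-1.29, SE 0.29, 95% interval -1.90 to -0.67, adjusted p = 0.003899). That fall passed with each array left out (-1.45 to -1.12) and under 10 of 11 other settings, and did not pass without normalization (-0.51, adjusted p = 0.3879). As deposited, GATAe read 483, 649 and 476 in heat-shocked wild type and 346, 291, 397 and 486 in hsp-otd, which overlap. The deposited hsp-Otx2 values of GATAe, 171, 103, 295 and 290, did not overlap with heat-shocked wild type. The 95% interval of the difference between the lines ran from 0.06 to 1.20 around 0.63 (SE 0.27), before adjustment over all probe sets, and those groups overlapped.

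The dorsal GATA factor pnr read 460.2, 869.9, 596, 361 and 391 in untreated wild type. It read 453, 534 and 902 in heat-shocked wild type. In hsp-otd it read 493, 595, 579 and 603, and in hsp-Otx2 291, 198, 195 and 179. The hsp-Otx2 arrays were the 4 lowest of the 16, and the other 3 groups overlapped. The order of geometric means was heat-shocked wild type (602), hsp-otd (566), untreated wild type (508) and hsp-Otx2 (212), where only the step from untreated wild type to hsp-Otx2 passed the test.

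pnr fell 2.84-fold in hsp-Otx2 against heat-shocked wild type (log2 difference -1.51, SE 0.29, 95% interval -2.12 to -0.89, adjusted p = 0.0006672). It passed with each array left out (-1.72 to -1.22) and under the 11 other settings (-1.51 to -1.04, highest adjusted p = 0.03674). In hsp-otd the difference of pnr was -0.09 (SE 0.29, 95% interval -0.70 to 0.52, adjusted p = 0.8483). The lines themselves differed in pnr, by 2.67-fold (1.42, SE 0.27, 95% interval 0.85 to 1.99, adjusted p = 0.0006177). The groups did not overlap, as for 39.2% of all probe sets in that comparison, and the difference passed with each array left out (1.33 to 1.57) and under the 11 other settings (1.41 to 1.72). As deposited, pnr read 464, 774, 739 and 769 in hsp-otd and 234, 142, 266 and 194 in hsp-Otx2.

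**Figure D2:**
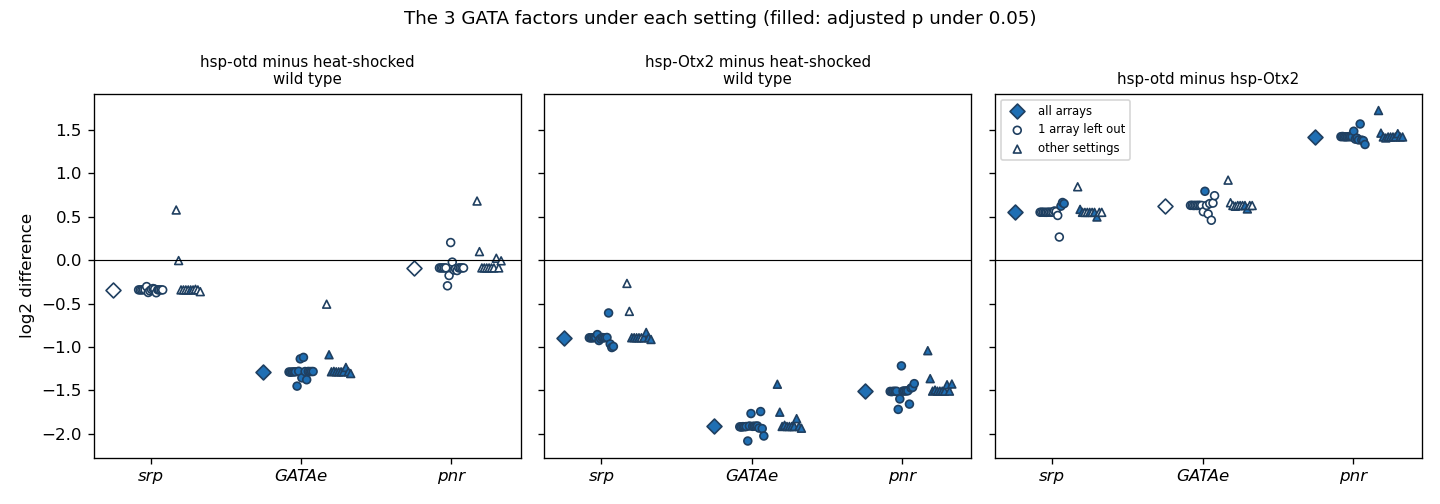
Log2 difference of srp, GATAe and pnr in 3 comparisons, with all arrays (diamonds), with 1 array left out (circles) and under the other settings (triangles); filled symbols have an adjusted p under 0.05. In hsp-Otx2 minus heat-shocked wild type GATAe and pnr are filled throughout, and srp is not; in hsp-otd minus heat-shocked wild type the open GATAe triangle at -0.51 is the fit without normalization.

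The terminal gap gene hkb, whose protein is a zinc finger repressor, read 653, 33.5, 401, 221 and 173 in untreated wild type. It read 232, 4.0 and 25.3 in heat-shocked wild type. In hsp-otd it read 317, 125, 159.8 and 109.5, and in hsp-Otx2 96.5, -37.2, -154.8 and 309. It was above the floor in 5 of 5, 2 of 3, 4 of 4 and 2 of 4 arrays of these groups, so its geometric means of 202, 49.0, 162 and 58.8 depend on the floor. The within-group SD of hkb reached 1.95 in log2, the widest of the 7 factors, and all groups overlapped. No difference passed: heat-shocked against untreated wild type gave -2.04 (SE 1.05, 95% interval -4.26 to 0.18, adjusted p = 0.1832), hsp-otd against heat-shocked wild type 1.73 (adjusted p = 0.2513) and hsp-Otx2 against it 0.26 (adjusted p = 0.8814). With intervals this wide, a several-fold difference of hkb in either direction was not detectable with these arrays.

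The FoxA factor fkh read 114, 25.1, 187, 300.1 and 174 in untreated wild type. It read 299.5, 178.5 and 151 in heat-shocked wild type. The hsp-otd arrays read 263, 351, 301 and 374, and the hsp-Otx2 arrays 313, 359, 351 and 297. Both lines lay in the upper part of the range, and untreated replicate 2 was the lowest array. The order of geometric means was hsp-Otx2 (329), hsp-otd (319), heat-shocked wild type (201) and untreated wild type (123), with no neighbours that passed the test. Against heat-shocked wild type the difference of fkh was 0.67 in hsp-otd (SE 0.58, adjusted p = 0.411) and 0.71 in hsp-Otx2 (SE 0.58, adjusted p = 0.3662), so neither passed. Against untreated wild type it was 1.42 in hsp-Otx2 (SE 0.51, adjusted p = 0.03576), a rise in groups that overlapped, and 1.38 in hsp-otd (SE 0.51, adjusted p = 0.05304). The rise in hsp-Otx2 did not pass without untreated replicate 1 or without any 1 of the 4 hsp-Otx2 arrays (adjusted p of 0.05961 to 0.07532), and passed under 8 of 11 other settings, not without normalization (adjusted p = 0.1037). The value in hsp-otd passed without untreated replicate 3, 4 or 5, with 1.52, 1.71 and 1.51.

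The hindgut T-box factor byn was the steadiest of the 7, with a within-group SD of 0.14 to 0.19 in log2. It read 586, 688, 585, 735 and 642 in untreated wild type. It read 795, 647 and 617 in heat-shocked wild type. The hsp-otd arrays read 713, 866, 669.5 and 648, and the hsp-Otx2 arrays 557, 686, 522 and 544. Every pair of groups overlapped. The geometric means ran from 719 in hsp-otd through 682 in heat-shocked and 645 in untreated wild type to 574 in hsp-Otx2, with no step that passed the test. The intervals were narrow. Heat-shocked against untreated wild type gave 0.08 (95% interval -0.21 to 0.37, adjusted p = 0.7142). Against heat-shocked wild type hsp-otd gave 0.08 (adjusted p = 0.7221) and hsp-Otx2 -0.25 (95% interval -0.55 to 0.05, adjusted p = 0.1884). The difference of byn between the lines was 0.33 (SE 0.13, adjusted p = 0.07799), and it passed without hsp-Otx2 replicate 2 (0.41, adjusted p = 0.03543).

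The Cdx relative cad read 119, 104, 109, 61.2 and 207 in untreated wild type. It read 259, 284 and 30.5 in heat-shocked wild type. The hsp-otd arrays read 154, 322, 174 and 136, and the hsp-Otx2 arrays 352, 277, 250.1 and 314. The hsp-Otx2 arrays all lay above the untreated ones, while heat-shocked wild type held both high values and the lowest of all. The order of geometric means was hsp-Otx2 (296), hsp-otd (185), heat-shocked wild type (131) and untreated wild type (111), and no neighbours passed the test. Against heat-shocked wild type cad differed by 0.50 in hsp-otd (adjusted p = 0.583) and by 1.18 in hsp-Otx2 (SE 0.63, adjusted p = 0.1558). Heat-shocked wild-type replicate 3 decided these values: without it, heat-shocked minus untreated wild type went from 0.23 (adjusted p = 0.8207) to 1.28 (adjusted p = 0.0439), hsp-otd minus heat-shocked wild type went from 0.50 to -0.55 (adjusted p = 0.3899), and hsp-Otx2 minus heat-shocked wild type went from 1.18 to 0.12 (adjusted p = 0.8632).

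**Figure D3:**
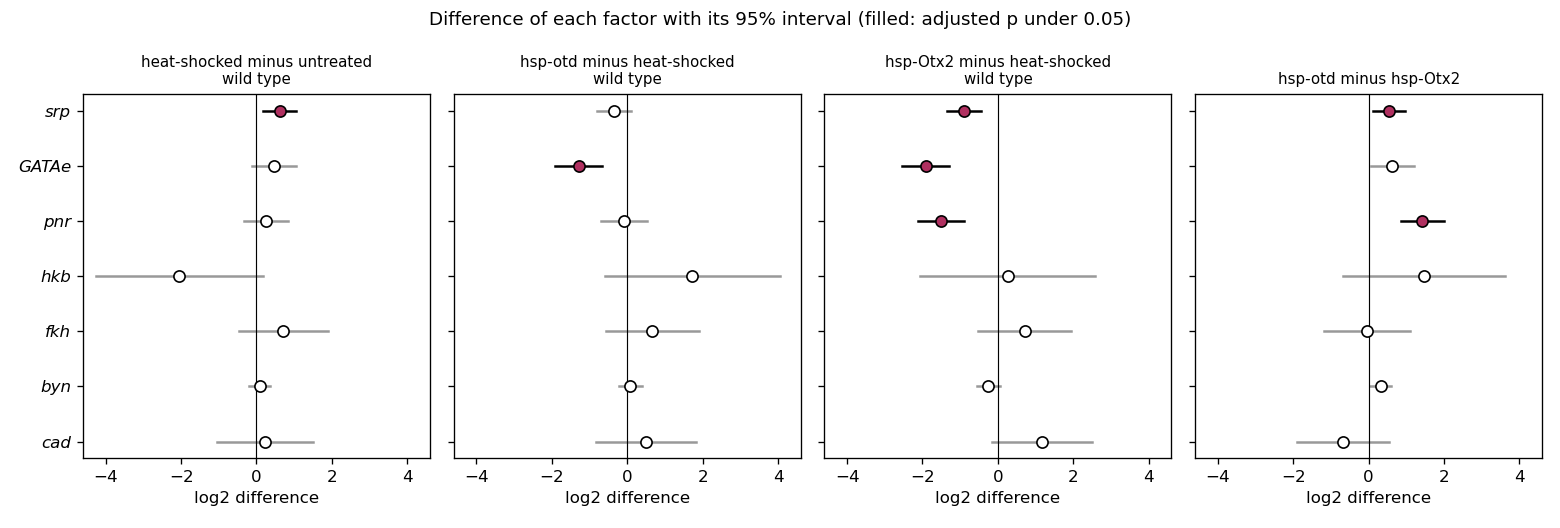
Log2 difference of each of the 7 factors (rows) with its 95% interval in the 4 comparisons; filled points have an adjusted p under 0.05. The intervals of byn are the narrowest and those of hkb the widest, and the filled points are all GATA factors.

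Between heat-shocked and untreated wild type, 1 of the 7 factors was higher with heat shock, where 22.5% of all probe sets passed, 10.3% higher and 12.2% lower. That factor was srp, 1.54-fold higher in heat-shocked than in untreated wild type (log2 difference 0.62, SE 0.21, 95% interval 0.18 to 1.05, adjusted p = 0.03957). It was also the 1 factor with no overlap between these groups, as were 20.1% of all probe sets. The call was lost when untreated replicate 1, 3 or 4, heat-shocked wild-type replicate 1, 2 or 3, or hsp-otd replicate 1 or 3 was left out (differences of 0.55 to 0.65), and without normalization (0.12, adjusted p = 0.8611). GATAe (0.47, adjusted p = 0.2575), pnr (0.25, adjusted p = 0.5753) and fkh (0.71, adjusted p = 0.3993) did not pass. The median of the 7 factors was 0.25, beside 0.01 over all probe sets, and collection time cannot be told apart from the heat pulse here. Below, this comparison is called the heat pulse for short.

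Both lines were also set against untreated wild type, a comparison that shares the arrays of the lines with those above and joins heat and transgene. In hsp-Otx2 GATAe fell 2.73-fold (-1.45, SE 0.26, adjusted p = 0.0002188) and pnr 2.40-fold (-1.26, SE 0.25, adjusted p = 0.0007046), and fkh rose as given above. These 2 lower and 1 higher of 7 factors stand beside 40.0% of probe sets that passed, 18.5% higher and 21.4% lower, and 3 of 7 (GATAe, pnr and cad) had no overlap, as did 34.7% of probe sets. The difference of srp was -0.27 (adjusted p = 0.2712), and without hsp-Otx2 replicate 1 it was 0.011 (adjusted p = 0.9509). The difference of cad was 1.41 (SE 0.55, adjusted p = 0.05174), and it passed under 7 of 11 other settings and with 4 of the 16 arrays left out in turn (untreated replicate 5 and heat-shocked wild-type replicates 1, 2 and 3). The difference of hkb, which did not pass with all arrays, passed without untreated replicate 2 (-2.44, adjusted p = 0.04396) and without hsp-Otx2 replicate 4 (-2.57, adjusted p = 0.04633). In hsp-otd 1 of 7 factors fell, GATAe by 1.76-fold (-0.82, SE 0.26, adjusted p = 0.02406), beside 29.6% of probe sets that passed, 15.7% higher and 13.9% lower. The groups of GATAe overlapped, and the call was lost without normalization (-0.51), without untreated replicate 2, 3 or 5 and without hsp-otd replicate 2 or 3 (-0.82 to -0.65). In that comparison srp alone of the 7 did not overlap (0.28, adjusted p = 0.3002), as did 27.9% of probe sets, and 38.1% did not in hsp-otd against heat-shocked wild type, where srp and GATAe did not.

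Other genes of the tissues these factors build were counted in lists of gene names. The lists were chosen with earlier results of these data known, so the counts are a description. In hsp-Otx2 against heat-shocked wild type, 10 of 21 midgut enzyme genes tested rose and 1 fell (median 0.77, beside -0.13 over all probe sets), in the arrays in which the midgut factor GATAe was lowest. Of all probe sets 17.5% rose and 19.7% fell in that comparison. They included the trypsin genes alphaTry (1.77, adjusted p = 5.399e-08) and gammaTry (2.03, adjusted p = 8.939e-08). Whether GATAe and the enzymes moved in the same cells was not tested. Trypsin genes are close copies, and whether their probe sets tell them apart was not tested either. The enzyme list also holds Jon25Bi, which entered the test only through arrays of the lines. It was above the floor in 0 of 5 untreated and 0 of 3 heat-shocked wild-type arrays, 2 of 4 hsp-otd arrays and 4 of 4 hsp-Otx2 arrays. Without normalization 12 enzyme genes rose and none fell in hsp-Otx2, where 2378 of 12264 probe sets passed, 86.4% of them higher. In hsp-otd 1 enzyme gene rose and 5 fell (median -0.28), beside 15.8% and 13.6% of all probe sets, and the protease gene Jon99Cii was among those that fell (-1.34, adjusted p = 0.00124). These falls depended on the scaling. Without normalization 5 enzyme genes rose and 1 fell in hsp-otd (median 0.45, beside 0.68 over all probe sets). Of 12264 probe sets 3810 then passed, 92.8% of them higher. Jon99Cii did not pass without normalization (-0.46, adjusted p = 0.4228), and mex1 went from -0.33 to 0.57. Between the lines 1 was higher and 12 were lower in hsp-otd (median -1.49), beside 15.7% and 13.8% of all probe sets. Without normalization 1 was higher and 10 were lower, where 1837 of 12264 probe sets passed, 71.0% of them higher. In heat-shocked against untreated wild type 8 of the 21 rose and 4 fell (median 0.73), beside 10.3% and 12.2% of all probe sets. Against untreated wild type 7 rose and 2 fell in hsp-otd, beside 15.7% and 13.9% of all probe sets. In hsp-Otx2 12 rose and 2 fell, beside 18.5% and 21.4%. The geometric means of Jon99Cii were 157 in untreated wild type, 1955.5 in heat-shocked wild type, 773 in hsp-otd and 8889 in hsp-Otx2.

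Among regulators near the factors, none of the 8 hindgut and Malpighian tubule genes tested rose in hsp-Otx2 and 4 fell, where 17.5% of all probe sets rose and 19.7% fell. In each list the gene with the smallest adjusted p is given first. In the hindgut list it was bowl (-0.78, adjusted p = 0.001798), a zinc finger gene of hindgut patterning. Of 10 midgut patterning genes none rose and 3 fell, first the POU gene nub (-1.08, adjusted p = 0.0002035), whose other probe sets did not pass (-2.12 and -0.26). Of 8 visceral mesoderm genes 1 rose and 4 fell, first bap (-0.64, adjusted p = 2.122e-06), the homeobox gene of midgut muscle. In these 3 lists drm (-1.26), vvl (-1.38) and HLH54F (-1.17) fell further than bowl, nub and bap. Of 8 genes of heart, amnioserosa and dorsal ectoderm, where pnr acts, none rose and 2 fell, first the LIM homeobox gene tup (-3.70, adjusted p = 3.436e-06, above the floor in 3 of 4 hsp-Otx2 arrays). Of 9 haemocyte and fat body genes, tissues that srp also specifies, none rose and 5 fell, first the receptor gene Pvr (-0.83, adjusted p = 0.0001523), and of 5 salivary gland genes, where fkh acts, none rose and 3 fell, first eyg (-5.32, adjusted p = 0.0004245, above the floor in 2 of 4 hsp-Otx2 arrays). Their medians were -0.71, -0.40, -0.94, -0.55, -0.27 and -0.71 in that order, beside -0.13 over all probe sets. Without normalization the numbers that fell were 0, 0, 0, 1, 0 and 1, and bowl, nub, bap and Pvr were among the genes that did not pass. Of all 12264 probe sets tested in that way, 2378 passed, and 86.4% of these were higher, so falls were scarce in any list. All these counts are against heat-shocked wild type. Against untreated wild type 0, 2, 1, 0, 0 and 0 genes rose in hsp-Otx2 and 5, 0, 2, 3, 6 and 2 fell. Of all probe sets 18.5% rose and 21.4% fell in that comparison. The geometric means of nub were 1152 in untreated wild type, 2346 in heat-shocked wild type and 1108 in hsp-Otx2.

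In hsp-otd the same 6 lists had 0, 0, 1, 0, 3 and 0 genes that rose and 1, 1, 3, 2, 2 and 1 that fell, where 15.8% of all probe sets rose and 13.6% fell. These counts use 1 probe set per gene. A further probe set of the hindgut gene otp fell (-3.54, adjusted p = 3.25e-05) where the one counted did not pass (-0.37, adjusted p = 0.1541), and a further one of bap fell (-0.71, adjusted p = 0.01545) where the one counted did not pass (0.05, adjusted p = 0.6311). The heart gene tin, a homeobox gene, was below the floor in all 4 hsp-otd arrays. With these arrays set to the floor, tin fell 8.78-fold against heat-shocked wild type (-3.13, adjusted p = 0.002052), beside pnr at -0.09. The size of the tin fall depends on the floor, and it ran from -4.06 to -1.81 under the 11 other settings. The glial and haemocyte gene gcm2 rose (2.63, adjusted p = 0.001509), with 1 of 3 heat-shocked wild-type arrays above the floor, and the visceral muscle gene HLH54F fell (-1.20, adjusted p = 3.013e-05). Without normalization 2, 4, 3, 2, 5 and 1 genes of these lists rose and 0, 0, 0, 1, 0 and 1 fell. Of all 12264 probe sets tested in that way, 3810 passed, and 92.8% of these were higher. HLH54F then did not pass (-0.46, adjusted p = 0.3592), while tin and gcm2 still passed. Against untreated wild type 0, 2, 1, 1, 1 and 2 genes rose in hsp-otd and 3, 0, 1, 3, 2 and 0 fell. Of all probe sets 15.7% rose and 13.9% fell in that comparison.

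**Figure D4:**
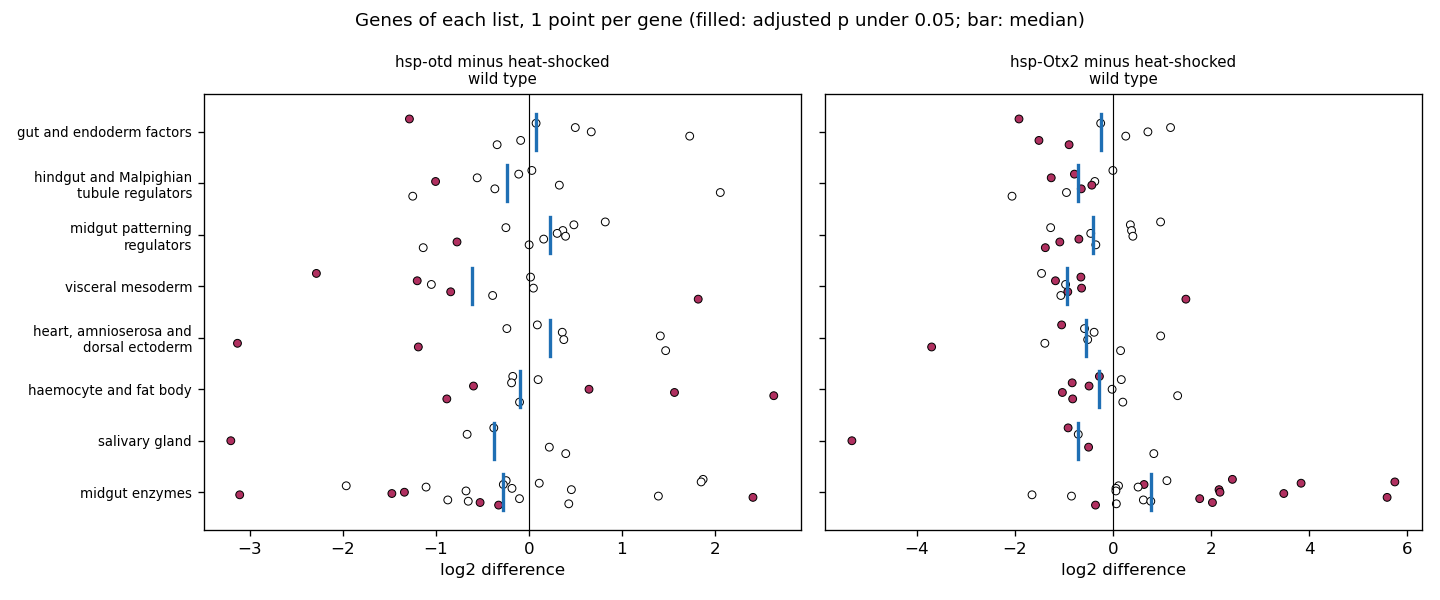
Log2 difference of each gene (points) of the 7 factors and of the lists of gut, mesoderm, blood and salivary gland genes, in hsp-otd and hsp-Otx2 against heat-shocked wild type; filled points have an adjusted p under 0.05 and bars are medians. In hsp-Otx2 the midgut enzymes are the list with most genes to the right of 0 (median 0.77), while the filled points of the factors are GATAe, pnr and srp, to the left.

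As a description, each factor was set beside the genes whose normalized log2 values followed it most closely over the 16 arrays, by Pearson's r among 8871 named probe sets that exceeded the floor in 12 arrays or more. The arrays share groups, so r holds the differences between groups as well as the scatter within them. For srp the closest were CG9147 (0.89), Cngl (0.89) and sicily (0.86). For GATAe they were CG9536 (0.94), SdhB (0.89) and ND-B16.6 (0.89). For pnr they were Sem1 (0.93), Nup44A (0.92) and CG6878 (0.92). For fkh they were Mtap (0.93), CG11127 (0.89) and yin (0.88), and for cad CG17110 (0.89), CG6700 (0.89) and Mtl (0.88). The closest to byn were ReepA (0.85), Klc (0.81) and Rab19 (0.77), and to hkb dpr13 (0.82), Roc2 (0.81) and CG6678 (0.80). None of the 7 factors was among another's closest genes. Between the factors, r was highest for GATAe with pnr (0.69), followed by srp with GATAe (0.50) and srp with pnr (0.45), and lowest for cad with pnr and GATAe with fkh (both -0.57).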

How the data were processed

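The authors deposited 1 linear intensity for each probe set on each array (-3962 to 34260, negative values kept), and no column was left out. Image reading, probe summary and array scaling are not given in the sources used here. Labelled cRNA was made from the RNA of 200 mg of embryos, per the labels. After 32 control probe sets were dropped, the other 14038 were quantile normalized over 16 arrays, set to a floor of 20 and expressed as log2. The 12301 that exceeded the floor on 3 or more arrays entered limma 3.58.1 in R 4.3.3 (lmFit with 1 coefficient per group, eBayes with a trend, 12 residual and a median of 4.07 prior degrees of freedom). Adjusted p-values are Benjamini-Hochberg over all probe sets tested, at a threshold of 0.05. The model was run on simulated data with independent noise and no differences in array scaling, so that run does not bear on normalization. Nothing states that replicates came from separate collections, so a p-value covers only the spread among arrays, which may be technical. The number of arrays limits the precision.

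Identifier stems were matched to symbols, locus numbers and older names in a RefSeq gene table, which gave 1 symbol to 12751 probe sets, several to 463 and none to 824. CAD is also an older name of 4 other genes, each with a probe set of its own. The text names the 7 factors, oc, up to 3 genes per list and comparison with the smallest adjusted p among those that passed, and 3 genes closest to each factor. Members and lists were chosen with earlier results of these data known. Alternatives covered normalization, floor, filter, variance model, samples in the fit, the replicate number as a block and leaving out each array.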

Additional observations from a re-analysis of the deposited data

Results flagged for a closer look

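The srp value of hsp-Otx2 replicate 1 (557) stood apart from the other 3 arrays of its group, with a gap of 0.893 of the group's whole range. It was 1 of 21 groups of the 7 factors tested in this way, which did not cover every group, and chance flags about 1 in 20. In heat-shocked wild type, cad replicate 3 (30.5) also lay far from replicates 1 and 2 (259 and 284), as given above. The lines differed in pnr, hsp-otd minus hsp-Otx2, by 1.42 (adjusted p = 0.0006177, all 4 hsp-otd arrays above all 4 hsp-Otx2 arrays). They differed in srp by 0.55 (adjusted p = 0.04653, again 4 above 4), and by 0.27 (adjusted p = 0.082) without hsp-Otx2 replicate 1. Line and transgene cannot be told apart in these values.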

How the results depend on the processing

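Of 462 values of the 7 factors under other settings, 409 kept their direction and their side of the threshold, 23 lost the call, 18 gained it and 12 changed sign; with 1 array left out these numbers were 615, 30, 14 and 13 of 672. The calls of GATAe and pnr in hsp-Otx2 against either wild-type group, and of pnr between the lines, held under every alternative run. Of 747 values of 68 list results under other settings, 670 held, 73 lost the call and 4 changed sign.

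Without normalization the numbers of probe sets called went from 2770 to 1289 for heat-shocked against untreated wild type, from 4577 to 2378 for hsp-Otx2 and from 3630 to 1837 between the lines, and from 3641 to 1951 and 4917 to 2683 for hsp-otd and hsp-Otx2 against untreated wild type. In hsp-otd against heat-shocked wild type the number went from 3610 to 3810, and to 2893 with 1 variance factor per group. The shares of calls that were higher went from 45.8% to 14.7%, from 53.3% to 71.0% between the lines, and from 53.0% to 76.1% and 46.4% to 58.4% against untreated wild type; median scaling gave 64.8% for hsp-otd against untreated wild type. Values that changed sign without normalization were GATAe -0.0033, byn -0.36, cad -0.11 and pnr -0.19 for the heat pulse, srp 0.58 and pnr 0.68 in hsp-otd, byn 0.28 in hsp-Otx2 and fkh 0.22 between the lines. Among list genes they were nub 0.15, Pxn 0.25 and mex1 0.57 in hsp-otd and Pxn 0.12 in hsp-Otx2. Other sign changes were cad -0.0014 for the heat pulse and pnr 0.10 in hsp-otd with median scaling, pnr 0.022 in hsp-otd with array weights, and hkb -0.99 in hsp-Otx2 with asinh in place of a floor. The heat pulse gave 1443 calls with only the compared groups and 1601 with 1 variance factor per group.

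The number of the 7 factors called for the heat pulse (1) went to 0 without normalization, with median scaling, with no filter, with 1 variance factor per group, with array weights, without a trend and with the replicate block. In hsp-otd (1) it went to 0 without normalization and to 2 with only the compared groups. Between the lines (2) it went to 1 without normalization, with asinh, with no filter, with only the compared groups, without a trend and with the replicate block, and to 4 with 1 variance factor per group or array weights. In hsp-otd against untreated wild type (1) it went to 0 without normalization, with only the compared groups and with the replicate block, and to 2 with median scaling, a floor of 50, asinh, a minimum of 8 arrays, 1 variance factor per group or array weights. In hsp-Otx2 it ran from 2 to 3 against heat-shocked wild type (3) and from 2 to 4 against untreated wild type (3).

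With 1 array left out the counts of factors called ran from 0 to 1 for the heat pulse, 1 to 2 in hsp-otd, stayed at 3 in hsp-Otx2, and ran from 1 to 3 between the lines and, against untreated wild type, from 0 to 2 in hsp-otd and 2 to 4 in hsp-Otx2. Values that changed sign ran from -0.029 to 0.15 for byn, -0.31 to 1.28 for cad and -0.047 to 0.45 for pnr under the heat pulse. In hsp-otd they ran from -0.013 to 0.19 for byn, -0.55 to 1.04 for cad and -0.30 to 0.20 for pnr. In hsp-Otx2 they ran from -0.53 to 1.38 for hkb and -0.26 to 1.52 for oc, between the lines from -0.12 to 0.049 for fkh, and against untreated wild type from -0.97 to 0.10 for hkb in hsp-otd and from -0.39 to 0.011 for srp in hsp-Otx2. The cause of these changes was not tested.

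Replicate numbers showed no pairing of the samples: over 21 same-numbered pairs of different groups the deviations correlated between -0.07 and 0.12. Of 16 arrays 3 correlated best with their own number. Such correlations cannot show that same-numbered samples were handled apart. With the replicate block 2166, 3171, 4264, 3587, 3627 and 4863 probe sets were called in the 6 comparisons. Few arrays and dim signals, above all of hkb, limit what was detectable.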

Other observations

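GATAd, another GATA gene, is in the midgut patterning list. It rose 2.42-fold in heat-shocked against untreated wild type (log2 difference 1.27, SE 0.41, adjusted p = 0.03272), where srp rose by 0.62. The call of GATAd passed under 6 of 11 other settings, not without normalization (0.88, adjusted p = 0.3075). It was lost without untreated replicate 3 or 4 or heat-shocked wild-type replicate 1 or 3 (0.97 to 1.36, highest adjusted p = 0.1485). Its geometric means were 99.2 in untreated wild type, 240 in heat-shocked wild type, 424 in hsp-otd and 471 in hsp-Otx2. Against heat-shocked wild type it gave 0.82 in hsp-otd (adjusted p = 0.1587) and 0.97 in hsp-Otx2 (adjusted p = 0.08394), where the difference of GATAe was -1.29 and -1.92. The remaining GATA gene of the lists, grn, was above the floor in 1 of 5, 0 of 3, 3 of 4 and 3 of 4 arrays, and ush, whose protein binds pnr, in 5, 1, 3 and 2 arrays of the same groups. Neither passed in these comparisons, and both were looked at after their values were seen.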
